A study of Mus musculus with 8 samples.

Results

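Cone photoreceptor nuclei were chosen from 8 retinal libraries of single-nucleus RNA sequencing (snRNA-seq) by the level of 6 cone genes. A droplet barcode with at least 500 unique molecular identifiers (UMIs, one per captured RNA molecule) and at most 5% mitochondrial UMIs was called a cone when Arr3, Pde6c, Gnat2, Gnb3, Cngb3 and Opn1sw together gave at least 8 UMIs and at least 1% of its total. It was left out when Rbpms and Slc17a6, which mark retinal ganglion cells (RGCs), gave more than 1 UMI together. Of 46484 barcodes past the depth and mitochondrial limits, 670 were cones (1.44%). They held 505 to 7116 UMIs each, with a median of 2024.5. The values of these 8 genes chose the nuclei, so they are given below as descriptions with no test.

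The control group was 4 libraries of Piezo2f/f mice (replicates 1 to 4), in which both copies of Piezo2 are floxed and no Cre is present. The other group, called cKO here, was 4 libraries (replicates 10 to 13) of Olig2-cre;Piezo2f/f mice, in which Cre is driven by the Olig2 locus, so that it acts in cells of the Olig2 lineage and cKO mice are heterozygous for Olig2. All mice were female and at postnatal day 120, and every library pooled 6 retinae. The sort before sequencing used RBPMS and NeuN antibodies to enrich RGCs, so that cones were nuclei that passed a sort aimed at another cell type. Shares of cones are therefore shares of that sort and not of the retina. The labels do not say that libraries came from separate mice, so p-values measure the spread between these libraries, part of which may be technical.

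Cones are the photoreceptors of daylight and colour vision, and rods those of dim light. In both, an opsin activated by light signals through the G protein transducin to a phosphodiesterase that lowers cGMP and closes cyclic nucleotide-gated channels, and each step uses a cone or a rod form of the protein. Mouse cones make a short-wavelength opsin (Opn1sw), a medium-wavelength opsin (Opn1mw) or both, in proportions that change from dorsal to ventral retina. Thyroid hormone receptor beta (Thrb) is needed for Opn1mw expression, and cones without it make Opn1sw.

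Libraries held 35697629 to 60088630 UMIs in all and 2981 to 7237 barcodes past the limits. No cone barcode occurred among the cones of another library, and 15 of the 670 also passed the limits in another library. Among all barcodes past the limits, 245 barcode sequences occurred in 2 or more libraries. A total of 22 cones (3.28%) had one of the highest doublet scores of their library, as did 4.84% of all barcodes past the limits. Among cones 3 had more UMIs of rod than of cone genes. A further 19 barcodes met the cone limits but had over 1 UMI of Rbpms plus Slc17a6. Another count was of 9 cones with 3 or more UMIs of the amacrine and bipolar genes Gad1, Gad2, Slc6a9, Grm6 and Trpm1 together. There were 5 cones with 8 or 9 UMIs of the 6 cone genes and 0 barcodes with 6 or 7 at the same share. Opn1mw, which the rule did not use, was at 1996 CPM (UMIs of a gene per 1000000 UMIs) in the 51 cones with 1 to 1.5% cone-gene UMIs and at 824 CPM in the 62 barcodes left out at 0.5 to 1%.

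The name was checked on 9 cone genes outside the rule. Opn1mw had a UMI in 86.9% of cones, against 4.03% of 2628 rod nuclei (chosen in the same way by 6 rod genes) and 2.35% of the other barcodes. Pde6h, the inhibitory subunit of the cone phosphodiesterase, had a UMI in 83.7% of cones and 8.11% of rods. Cnga3, the main subunit of the cone cyclic nucleotide-gated channel, had a UMI in 26.7% of cones and 0.266% of rods. The shares in cones and rods were 43.4 and 4.72% for Gngt2, 28.7 and 0.875% for the potassium channel subunit Kcne2, 18.1 and 0.647% for Rxrg and 81.8 and 5.90% for Slc24a2, which was also in 54.6% of the other barcodes. The remaining pair set cones apart less or not at all, with Thrb in 87.6% of cones, 48.2% of rods and 50.1% of the others, and Gucy2e in 26.9% of cones and 28.3% of rods. Median depth was 2024.5 UMIs in cones and 910 UMIs in rods, so the shares were taken at unequal depths. The rod rule asked for 1% of UMIs from its 6 genes, and 359 of the 2628 rods held 3% or more.

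The sequences before the start sites of Opn1mw, Opn1sw and Arr3 are shown because the results below describe the levels of these genes among cones. Opn1sw and Arr3 belong to the rule, so the choice of nuclei by itself shapes how their levels go together. Arr3 encodes cone arrestin, which ends the signal of activated cone opsin. Each run is the 250 bases before the RefSeq start site, 5′ to 3′ on the strand of the gene. The RefSeq table was of GRCm38.p6, and each run matched GRCm39, the build of the count files, exactly once. Capitals mark TAATC, the core of sites bound by CRX and related homeodomain factors of photoreceptors, searched as TAATC and GATTA. Opn1mw lies on the plus strand (chrX:73170822-73171071), Opn1sw on the minus strand (chr6:29380513-29380762, inside the longer annotated span of the Opn1sw gene) and Arr3 on the plus strand (chrX:99648853-99649102).
Opn1mw: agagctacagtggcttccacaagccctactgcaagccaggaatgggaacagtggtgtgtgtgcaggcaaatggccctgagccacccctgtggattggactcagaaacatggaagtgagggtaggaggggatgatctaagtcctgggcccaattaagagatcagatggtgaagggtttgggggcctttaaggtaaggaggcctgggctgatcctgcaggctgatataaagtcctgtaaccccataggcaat
Opn1sw: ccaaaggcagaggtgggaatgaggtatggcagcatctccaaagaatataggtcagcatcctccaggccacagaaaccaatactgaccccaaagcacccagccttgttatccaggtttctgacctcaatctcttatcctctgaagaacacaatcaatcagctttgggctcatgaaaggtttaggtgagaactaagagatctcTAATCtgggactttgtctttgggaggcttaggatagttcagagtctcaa
Arr3: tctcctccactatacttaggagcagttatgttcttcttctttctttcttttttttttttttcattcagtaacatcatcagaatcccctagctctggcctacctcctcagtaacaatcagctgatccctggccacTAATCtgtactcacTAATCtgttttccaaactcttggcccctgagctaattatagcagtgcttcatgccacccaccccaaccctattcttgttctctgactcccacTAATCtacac
The Opn1mw run held 0 such letters, the Opn1sw run held 1, which began 49 bases before the start site, and the Arr3 run held 3, which began 116, 102 and 10 bases before it. Of 32851 promoter windows of the same length in the table, 19.8% held the motif.

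Cones made up 2.29, 1.27, 1.58 and 1.31% of the barcodes past the limits in control replicates 1 to 4 and 1.22, 1.18, 1.64 and 0.963% in cKO replicates 10 to 13. The groups overlapped, with means of 1.61% ± 0.474 (SD, n = 4) and 1.25% ± 0.284 (SD, n = 4), and did not differ by a two-sided exact permutation test over libraries (p = 0.229). Rods made up 4.90% ± 0.745 of control barcodes and 6.25% ± 1.59 of cKO barcodes (SD, n = 4 each, p = 0.2 by the same exact test). As a share of rods plus cones, cones were 28.6, 20.7, 28.8 and 20.4% in control and 17.6, 15.2, 16.6 and 17.7% in cKO libraries. Every control library lay above every cKO library, with means of 24.6% ± 4.70 and 16.8% ± 1.15 (SD, n = 4 each). The exact permutation p of 0.0286 is the smallest that 4 against 4 allows, and was 0.257 when adjusted over the 9 measures compared per library. Among nuclei with at least 1000 UMIs, control libraries came to 45.6% ± 16.8 and cKO libraries to 30.1% ± 1.43 (SD over 4 libraries, p = 0.0857 by the same exact permutation test). The 6 cone genes and Rbpms and Slc17a6 summed to 26035 ± 588 CPM in control and 24503 ± 1346 CPM in cKO cones, and median rod depth ran from 743.5 to 1057 and from 844.5 to 1024 UMIs. The 12 rod markers came to 15261 to 23899 CPM in barcodes of 100 to 300 UMIs, which hold mostly free RNA, and to 25209.8 to 36969.8 CPM in rods. The part of these values in the difference was not tested.

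**Figure D1:**
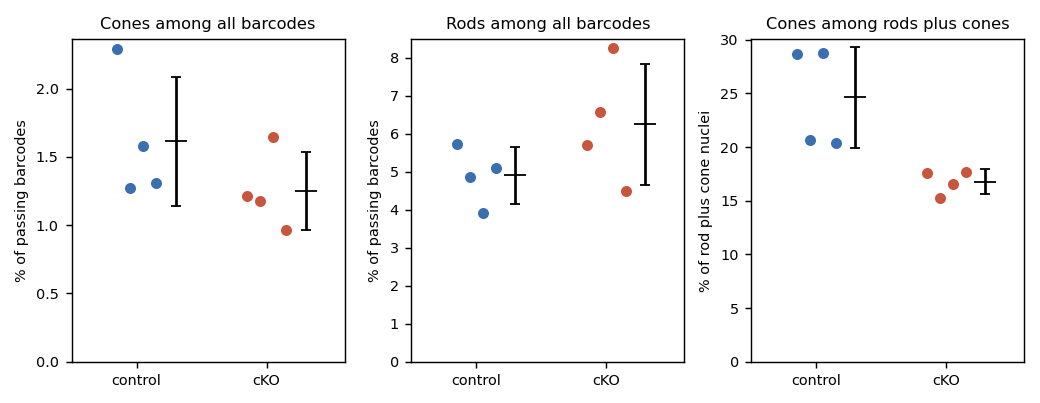
Share of cones and of rods among barcodes past the limits (percent), and share of cones among rods plus cones (percent), in 4 control (blue) and 4 cKO (red) libraries. Each point is a library and bars are mean ± SD. In the right panel the control libraries lie between 20.4 and 28.8% and the cKO libraries between 15.2 and 17.7%.

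Depth of cones was similar in range. The median was 1454.5, 2549, 2272.5 and 2848 UMIs in control and 1970, 1320, 2169.5 and 2335 UMIs in cKO libraries (exact permutation p = 0.4), and detected genes ran from 982 to 1662 (p = 0.457, same test).

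Among the genes of the rule, Arr3 was the most abundant in cones at 13771 ± 1129 CPM (SD, n = 8 libraries), followed by Cngb3, the other subunit of the cone channel, at 4288 ± 432 CPM. Pde6c, the catalytic subunit of the cone phosphodiesterase, was at 2698 ± 156 CPM and Opn1sw at 1871 ± 240 CPM. Gnb3 and Gnat2, the beta and alpha subunits of cone transducin, were at 1552 ± 139.5 and 1029 ± 141 CPM. These are levels in CPM, from nuclear RNA counted at the 3′ end and not corrected for gene length, so they do not rank the genes by transcript number.

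Cones were set against rods of the same library to describe which photoreceptor genes each held. Differences are of log2(CPM + 10), which understates the change of low genes, and carry no test because both sets of nuclei were chosen by photoreceptor genes. Of 8178 genes, 3.15% were over 1 in all 8 libraries (258 genes) and 2.14% were under -1 in all 8 (175 genes), with a median of -0.13 over all genes.

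Opn1mw was at 4284 ± 715 CPM in cones and 45.6 ± 21.7 CPM in rods, a difference of 6.35 (5.28 to 7.25 over libraries). Of 18 phototransduction genes outside the rule, 5 were over 1 in every library, namely Opn1mw, Pde6h (3.81), the sodium, calcium and potassium exchanger Slc24a2 (3.84), Cnga3 (3.79) and the transducin gamma subunit Gngt2 (2.46). Another 11 were below 0 in every library, and the median of the 18 was -0.54 beside -0.13 over all genes. The guanylate cyclase Gucy2f and the potassium channel subunit Kcnv2 were under -1 in every library (-3.79 and -1.56), at 22.1 and 65.4 CPM in cones against 420.1 and 204 CPM in rods. The other retinal guanylate cyclase, Gucy2e, was at 160 ± 36.1 CPM in cones and 335 ± 33.0 CPM in rods, and the opsin kinase Grk1 at 308 ± 35.1 and 478 ± 52.1 CPM. Of 7 rod phototransduction genes measured here outside the rod rule, 6 were under -1 in every library, from the channel subunit Cnga1 (-3.68) to the phosphodiesterase inhibitor Pde6g (-1.74). Sag, the rod arrestin, was the exception at 2464 ± 230 CPM in cones and 3418 ± 395 CPM in rods (-0.47, below 0 in all 8 libraries). In the barcodes of mostly free RNA, Sag was at 1309.8 CPM and Gngt1 at 3534 CPM, above the 714 CPM of Gngt1 in cones.

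**Figure D2:**
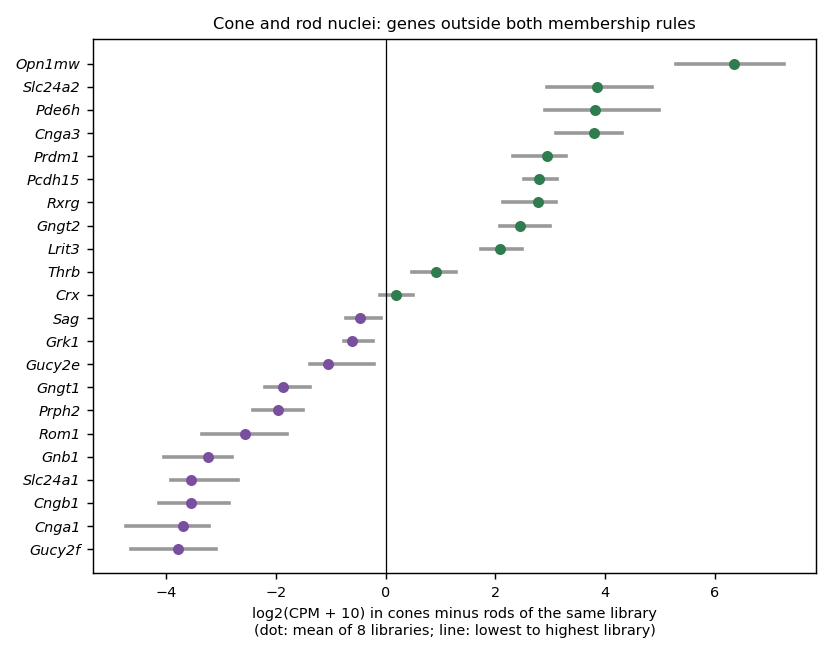
Difference in log2(CPM + 10) between cones and rods of the same library for genes that neither membership rule used. Dots are means of 8 libraries and lines run from the lowest to the highest library. Opn1mw lies at 6.35, Sag at -0.47 and Gucy2f at -3.79.

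Among photoreceptor transcription factors, Rxrg (2.77) and Prdm1 (2.95) were over 1 in every library, and Esrrb (-3.33) and Samd11 (-2.78) were under -1. Rxrg, a retinoid X receptor that marks developing cones, was at 95.9 ± 18.7 CPM in cones and 5.70 ± 3.65 CPM in rods. Prdm1, a repressor of bipolar genes in young photoreceptors, was at 535 ± 62.4 and 61.4 ± 13.3 CPM. Thrb was at 1681 ± 226 CPM in cones and 887 ± 99.7 CPM in rods (0.91, above 0 in all 8 libraries). Crx, the homeobox factor shared by both photoreceptors, was at 486 ± 40.9 and 425 ± 39.1 CPM, with both signs among libraries. Of 26 synapse genes measured, only Lrit3, an adhesion protein of photoreceptor terminals, was over 1 in every library (2.09) and none was under -1. Counts of list members here and in the groups below stand beside 3.15% over 1 and 2.14% under -1 of all 8178 genes.

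In the outer segment and cilium group, Pcdh15, a protocadherin of photoreceptors and hair cells, was at 18302 ± 1442 CPM in cones and 2641 ± 411 CPM in rods (2.80). It was the only one of 25 members over 1 in every library. The disc rim proteins Prph2 (-1.95) and Rom1 (-2.56), the axoneme protein Rp1 (-2.04) and Fscn2 (-2.16) were under -1 in every library. For these genes free RNA was as high as or higher than cones, with 1348 CPM for Prph2 against 707 CPM in cones and 1435 CPM for Rom1 against 317 CPM. Of 6 activity and stress genes none was past 1 in either direction in all 8 libraries. In the clock group the dopamine receptor Drd4 was under -1 (39.6 against 214 CPM), and in the energy group the glutamine synthetase gene Glul (88.4 against 293 CPM), which in free RNA was at 799 CPM.

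By size, the leading genes of this description outside the rule included Opn1mw, the cadherin Cdh18 (5.64, at 7328 ± 492 CPM in cones and 158 ± 98.1 CPM in rods), the transporter Abcb1b (4.93), Tafa3 (4.88), the long non-coding RNA C230014O12Rik (4.79), the kinases Mapk4 (4.78) and Cdk6 (4.75), Kif4 (4.36) and the adhesion protein Lrfn2 (4.36). Cdh18 was also at 954 CPM in the other barcodes. On the rod side the 10 lowest were Slc22a29 (-4.42), Pde6b (-4.15), ENSMUSG00000121315, Pak5, Fhip1a, Pde6a, Gucy2f, Cnga1, Gulp1 and Galnt10 (-3.63), of which Pde6a and Pde6b belong to the rod rule.

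Opsin RNA split the cones into classes. Of 670 cones, 245 (36.6%) had UMIs of Opn1mw but not Opn1sw, 337 (50.3%) had both, 81 (12.1%) had Opn1sw alone and 7 (1.04%) had neither. Median depth was 2057, 2024, 1807 and 1047 UMIs in these classes. The classes held 35.6, 52.3, 11.2 and 0.862% of control cones and 37.6, 48.1, 13.0 and 1.24% of cKO cones. A cone without a UMI of an opsin may still express it, and Opn1sw was among the genes that chose the nuclei. Background was 4.03% of rods with an Opn1mw UMI and 7.88% with an Opn1sw UMI, at a median rod depth of 910 UMIs. At the depth of cones these shares may be higher, which was not measured.

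**Figure D3:**
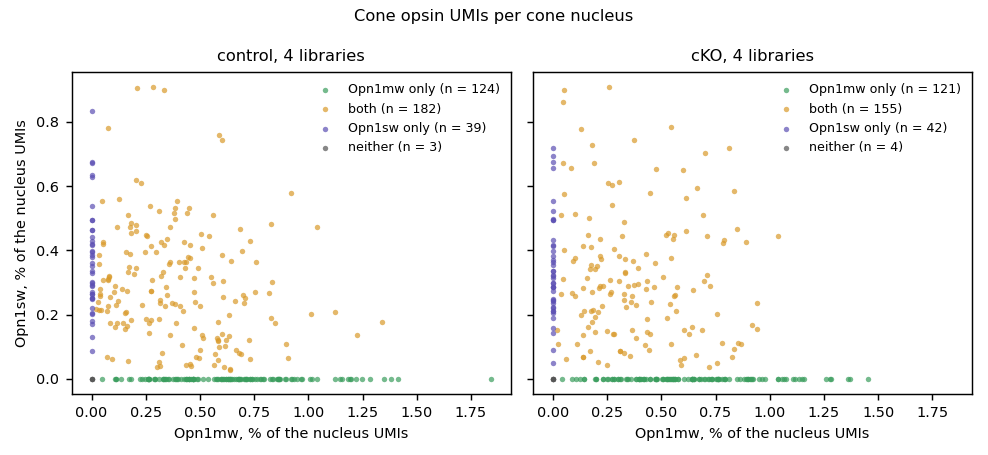
Opn1mw and Opn1sw UMIs of each cone as a percent of its UMIs, in control (left) and cKO (right) libraries, coloured by opsin class. Both panels hold nuclei along each axis and between them, with 124 and 121 nuclei of Opn1mw alone and 182 and 155 with both.

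Opn1mw was at 3917, 5219.6, 4527 and 3833 CPM in control and 3019, 4985, 4696 and 4078 CPM in cKO cones. The groups overlapped, at 4374 ± 643 and 4195 ± 871 CPM (SD, n = 4 each, exact permutation p = 0.771). After each cone was thinned to 1000 UMIs, which left out 46 shallower cones, 84.0% ± 5.24 of control and 83.1% ± 4.97 of cKO cones had an Opn1mw UMI (exact permutation p = 0.8), and before thinning 88.3 and 85.7%.

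To see which genes varied with Opn1mw among cones, the 582 cones with an Opn1mw UMI (Opn1mw+) were compared with the 88 without (Opn1mw-) inside libraries. Only 4 libraries had more than 10 nuclei on both sides, control replicates 1 and 3 and cKO replicates 10 and 12, with 20, 11, 18 and 12 Opn1mw- cones. The other 4 had 5 to 8 and were kept for a second look. Median depth ran from 1348 to 2862 UMIs in Opn1mw+ and from 1201.5 to 2393.5 UMIs in Opn1mw- cones. Of 3055 genes outside the rule, 2.19% were called (67 genes) by edgeR's quasi-likelihood test with the library as a block, at an adjusted p under 0.05 and a log2 fold change over 0.5. A share of 1.37% was higher in Opn1mw+ cones (42 genes) and 0.818% in Opn1mw- cones (25 genes). Of the 42, 4 had 0 UMIs in Opn1mw- cones and passed the filter on low counts only through the Opn1mw+ sums. The number of calls fell to between 31 and 63 without 1 library, and was also lower with DESeq2. In the other 4 libraries 53 of the 67 could be tested, 49 kept their direction and 11 were called, and over all genes 0.774% were called there (13 of 1679, with 0.536% higher and 0.238% lower in Opn1mw+ cones). In a fit of all 8 libraries 3.48% of 2445 genes were called, 2.41% higher and 1.06% lower in Opn1mw+ cones.

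Nrxn3, a presynaptic adhesion protein, was the gene furthest apart by test. It was at 6118, 7181, 4587 and 10277 CPM in Opn1mw- cones of control 1, control 3, cKO 10 and cKO 12, and at 792, 236, 826 and 598 CPM in Opn1mw+ cones. No Opn1mw+ value came near an Opn1mw- value, and the other 4 libraries had 3499 to 13259 against 355 to 1302 CPM. The log2 fold change, Opn1mw+ over Opn1mw-, was -3.47 (SE 0.15, edgeR adjusted p = 3.81e-52), and -3.26 in the other 4 libraries (adjusted p = 8.84e-07). By class, Nrxn3 was at 529 CPM in cones with Opn1mw alone, 753 CPM in cones with both opsins and 7599 CPM in cones with Opn1sw alone. The class with both opsins thus lay near the class with Opn1mw alone.

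Dcc, the netrin receptor of growing axons, was at 421, 230.4, 531 and 325 CPM in Opn1mw- and 76.1, 80.5, 127 and 77.6 CPM in Opn1mw+ cones of the same 4 libraries (log2 fold change -1.97, SE 0.36, edgeR adjusted p = 2.65e-05). It was higher in Opn1mw- cones in all 8 libraries and was also called in the other 4 (-2.61, adjusted p = 0.0269). Trhde, an ectoenzyme that degrades thyrotropin-releasing hormone, was at 421, 538, 419.6 and 691 CPM against 168, 75.1, 50.8 and 68.4 CPM (-2.47, SE 0.33, edgeR adjusted p = 1.40e-09). It was higher in Opn1mw- cones in 7 of 8 libraries and not called in the other 4 (-1.77, adjusted p = 0.152). The largest fold on this side, Flna, an actin crosslinker, rested on 13 UMIs in Opn1mw- cones of the 4 libraries (-3.60, SE 1.06, edgeR adjusted p = 0.0401). It could be tested again without control 3 and without cKO 12, and was called in neither (edgeR adjusted p = 0.170 and 0.0808). The others of the 10 largest were the phosphate transporter Slc17a1 (-2.13), the cadherin Cdh20 (-2.05), the G-protein regulator Rgs22 (-1.96), the phospholipid transporter Abcb4 (-1.79), the hydrolase Abhd14b (-1.71) and Gm12239 (-1.58). Of these 10 calls, those of Nrxn3, Dcc, Trhde and Gm12239 held without any 1 of the 4 libraries. By edgeR adjusted p, Slc17a1 lost its call without control 1 (0.0774) or cKO 10 (0.175), Cdh20 without control 3 (0.0611), Rgs22 without cKO 10 (0.111) or cKO 12 (0.123), Abcb4 without control 3 (0.170) or cKO 12 (0.0817), and Abhd14b without control 3 (0.406) or cKO 10 (0.671).

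On the Opn1mw+ side 4 called genes had 0 UMIs in the Opn1mw- cones of the 4 libraries, and their folds are lower bounds against a floor of 3 UMIs over that group. They passed the filter on low counts only through the Opn1mw+ sums. Those sums held 157378 to 219181 UMIs a library, against 24618 to 35750 UMIs in the Opn1mw- sums. The calls of these 4 genes are therefore descriptions and give no support by test. Samd7, a photoreceptor repressor that works with polycomb proteins, was at 147, 156, 95.3 and 105 CPM in Opn1mw+ cones, at least 4.74-fold higher. Over all 8 libraries Samd7 had 148 UMIs in Opn1mw+ and 0 in Opn1mw- cones. Atp10a, a phospholipid flippase, was at least 4.15-fold higher and likewise had 123 against 0 UMIs in all 8, but its call was lost without cKO 10 (edgeR adjusted p = 0.0673). Nptx1, a secreted neuronal pentraxin, was at least 5.92-fold higher, with 188 against 2 UMIs in all 8. Cacna2d3, a calcium channel subunit, was at least 6.27-fold higher in the 4 libraries but had 12 UMIs in Opn1mw- cones of the other 4, where its log2 fold change was -0.065 (edgeR adjusted p = 0.983).

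Kif4, a motor protein of dividing cells, was at 259, 204, 286 and 214 CPM in Opn1mw+ cones and had 2 UMIs in Opn1mw- cones, both in cKO 10 (log2 fold change 3.78, SE 0.66, edgeR adjusted p = 1.12e-05). With so few UMIs the size of its fold is loose, from 3.39 to 7.70 without 1 library and 7.26 in the other 4 libraries. Rgs7, a G-protein regulator of retinal bipolar cells, was at 584, 601, 546 and 725 CPM against 38.2, 192, 55.9 and 40.6 CPM (2.98, SE 0.37, edgeR adjusted p = 1.39e-10). Both were higher in Opn1mw+ cones in all 8 libraries, Kif4 was also called in the other 4 libraries and Rgs7 was not (edgeR adjusted p = 0.0427 and 0.126). Of the 10 largest on this side the rest were the heparan sulfate proteoglycan Gpc6 (3.63), the scaffold proteins Magi1 (2.93) and Sh3rf1 (2.73) and 4930578G10Rik (2.87), and each of these calls depended on single libraries. By edgeR adjusted p, Gpc6 (0.0736 and 0.0519) and 4930578G10Rik (0.0981 and 0.0773) were not called without control 3 or cKO 12, the only such fits that tested them. Magi1 was not called without control 1, control 3 or cKO 10 (0.0917 to 0.132), nor Sh3rf1 without control 3, cKO 10 or cKO 12 (0.218 to 0.290). With cones split at the library median of Opn1mw, Gpc6 turned to -3.52 and 4930578G10Rik to -0.21.

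**Figure D4:**
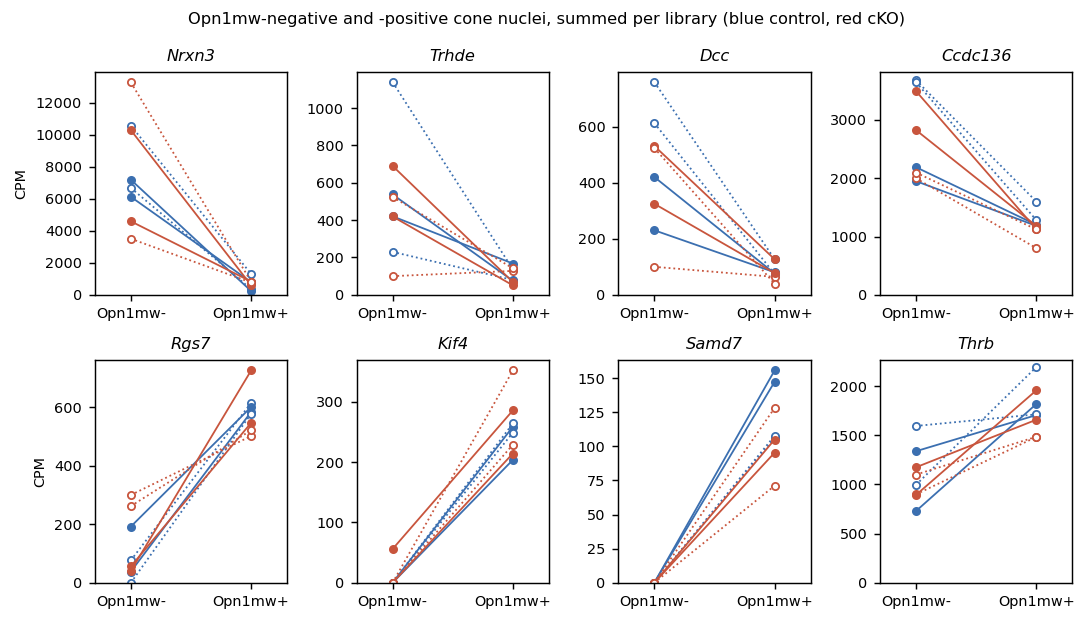
Level (CPM) of 8 genes in Opn1mw- and Opn1mw+ cones, summed per library and joined by a line, with control in blue and cKO in red. Filled points are the 4 libraries of the test and open points the other 4. Nrxn3 lies at 3499 to 13259 CPM without and 236 to 1302 CPM with Opn1mw, and Samd7 at 0 in every Opn1mw- sum.

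A list of 15 genes for opsin patterning was drawn up with earlier results of these data known. Of these, 5 could be tested and 1 was called in each direction, beside 1.37% called higher and 0.818% called lower over all 3055 genes. Thrb was at 1706, 1818, 1658 and 1957 CPM in Opn1mw+ and 1338, 729.6, 1175 and 894 CPM in Opn1mw- cones (log2 fold change 0.85, SE 0.17, edgeR adjusted p = 0.000123). The values did not overlap, and Thrb was higher in Opn1mw+ cones in all 8 libraries (other 4 libraries 0.71, adjusted p = 0.274). Ccdc136, a coiled-coil gene beside Opn1sw, was at 1183, 1201, 1182 and 1127 CPM in Opn1mw+ and 1949.99, 2189, 2825 and 3493 CPM in Opn1mw- cones (-1.06, SE 0.15, edgeR adjusted p = 3.82e-09). It was higher in Opn1mw- cones in all 8 libraries and was called in the other 4 (-1.09, adjusted p = 0.0157). Rxrg (0.34), Rorb (-0.29) and Tafa3 (-0.19) were not called. By class, Ccdc136 was at 149 CPM with Opn1mw alone, 1992 CPM with both and 2821 CPM with Opn1sw alone, and Thrb at 1878, 1733 and 1061 CPM.

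Among the other lists, read beside the 2.19% called over all genes, 2 of 13 transcription factors were called, Thrb and Samd7, both higher in Opn1mw+ cones, and 1 of 23 synapse genes, Nrxn3, which was lower there. Samd7 passed the filter on low counts only through its Opn1mw+ sums. None of 15 phototransduction genes outside the rule, 11 rod phototransduction genes or 23 outer segment and cilium genes was called, with medians of -0.05, -0.16 and 0.14 beside 0.03 over all genes. Pde6h was at 1135 ± 62.7 CPM in Opn1mw+ and 779 ± 59.0 CPM in Opn1mw- cones (SD, n = 4), and was not called (log2 fold change 0.62, edgeR adjusted p = 0.0506). Rule genes are described only, since the rule by itself shapes how their levels go together. Arr3 was at 15843, 14975, 12854 and 13181 CPM in Opn1mw+ and 9215, 8179, 7245 and 6662 CPM in Opn1mw- cones, and higher in Opn1mw+ cones in all 8 libraries. Cngb3 was at 3951 ± 384 and 5772 ± 760.5 CPM, higher in Opn1mw- cones in all 8 libraries. Pde6c was at 2707 ± 201 and 2745 ± 301 CPM.

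Markers of other cell types were summed for the same cones. The 12 rod markers came to 5305 to 5970 CPM in Opn1mw+ and 5849 to 7112 CPM in Opn1mw- sums, with none at 0. The 8 bipolar markers came to 139 to 477 and 168 to 230.4 CPM, with 4 of them at 0 in the Opn1mw- cones. The 6 amacrine markers came to 114 to 254 and 76.5 to 115 CPM, from 129 and 10 UMIs. The 6 Müller glia markers came to 198 to 269 and 230.4 to 574 CPM. Prkca, a bipolar marker, was itself called higher in Opn1mw+ cones (2.32, edgeR adjusted p = 0.00115). That call was lost without cKO 10 (edgeR adjusted p = 0.403), without the library block (0.0585) and after thinning (-1.06, 0.577), and the median split gave -2.0. The part of these levels in the calls was not tested.

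The positions of genes around the opsins and Arr3 (GRCm39, GENCODE vM39) were looked up after their values were known, with no test of position. Opn1mw spans chrX:73171070-73194366 on the plus strand. Tex28 lies 184 bases away on the minus strand at chrX:73194550-73211444, and had 66 UMIs in Opn1mw+ and 0 in Opn1mw- cones of the 8 libraries. It was too low to be tested.

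Arr3 spans chrX:99649101-99662099 on the plus strand, with Pdzd11 863 bases away on the minus strand (chrX:99662962-99670229) and Kif4 7244 bases away on the plus strand (chrX:99669343-99770946). Pdzd11, a PDZ-domain protein, was higher in Opn1mw+ cones (log2 fold change 1.82, SE 0.51, edgeR adjusted p = 0.0237), at 204 ± 62.1 against 61.9 ± 65.4 CPM (SD, n = 4). Its call was lost without control 1, cKO 10 or cKO 12 (edgeR adjusted p = 0.0919 to 0.428) and without the library block (0.126), and it was not called in the other 4 libraries (0.127). Kif4 and Pdzd11 were at 228 and 179 CPM over all cones and at 1.73 and 16.8 CPM in rods. Opn1sw spans chr6:29376670-29388467 on the minus strand, and Calu overlaps it at chr6:29348068-29377109. Ccdc136 lies 7812 bases from the Opn1sw span, at chr6:29396279-29427023 on the plus strand. The RefSeq start site of Opn1sw used above lies inside that span and so further from Ccdc136. Calu was at 104 ± 18.8 CPM in Opn1mw+ and 247 ± 108 CPM in Opn1mw- cones and was not called (edgeR adjusted p = 0.153). Transcripts that run on from a neighbouring gene were not tested.

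The question of whether the Opn1mw difference changed with genotype was put to the interaction term. In the 4 libraries 0% of 3055 genes were called by edgeR and 0 by DESeq2, with 115 of the 3062 genes of the fit at an unadjusted p under 0.05. This design has 2 libraries a genotype. With all 8 libraries 0.164% of 2445 genes were called (4 genes, all with a lower difference in cKO), and 0 without cKO replicate 13, in which single nuclei held most of the UMIs of these genes in Opn1mw- cones.

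The comparison of cKO with control cones covered 4117 genes outside the rule, of which 0.0243% were called (1 gene, lower in cKO), with 149 at an unadjusted edgeR p under 0.05. DESeq2 called 0. The called gene was Cdh12, a neuronal cadherin. Cdh12 was at 255, 164, 268 and 199 CPM in control and 77.7, 57.9, 65.6 and 124 CPM in cKO cones. All control values were above all cKO values, as was the case in one direction or the other for 2.98% of genes (123 of 4123). The means were 222 ± 48.9 and 81.2 ± 29.4 CPM (SD, n = 4 each). On the log2 scale cKO cones fell by 1.47 (SE 0.25, adjusted p = 0.0195 by edgeR's quasi-likelihood test). The call was lost with DESeq2 (adjusted p = 0.163) and without control 1, control 3, cKO 10, cKO 11 or cKO 12 (adjusted p up to 0.174). Among Opn1mw classes Cdh12 was at 292 CPM with Opn1mw alone, 83.2 CPM with both and 44.5 CPM with Opn1sw alone.

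The next genes by p were not called, with an edgeR adjusted p of 0.9999 or more for each. Sppl3, an intramembrane protease, was at 166, 144, 136 and 156 CPM in control and 77.7, 86.8, 69.7 and 89.3 CPM in cKO cones (log2 fold change -0.92, SE 0.23). Slc25a12, the mitochondrial aspartate and glutamate carrier, was at 76.2, 104, 104 and 78.0 CPM in control and 139.8, 154, 148 and 158 CPM in cKO cones (0.69, SE 0.23). The groups of both genes were apart in these libraries. Dtnb, a dystrophin partner at synapses (-0.57), and Mrtfa, a cofactor of serum response factor (-0.81), had lower values in all cKO than in all control libraries. Lars2, the mitochondrial leucyl-tRNA synthetase (0.75), had higher ones. Lsamp (1.02), Cmss1 (0.87) and Rps28 (0.88) overlapped between groups. With no filter on low counts Cmss1 (edgeR adjusted p = 0.00105) and Lsamp (edgeR adjusted p = 0.00451) were called, and Cmss1 reached 8970 CPM in free RNA against 225.5 to 1181 CPM in cones.

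**Figure D5:**
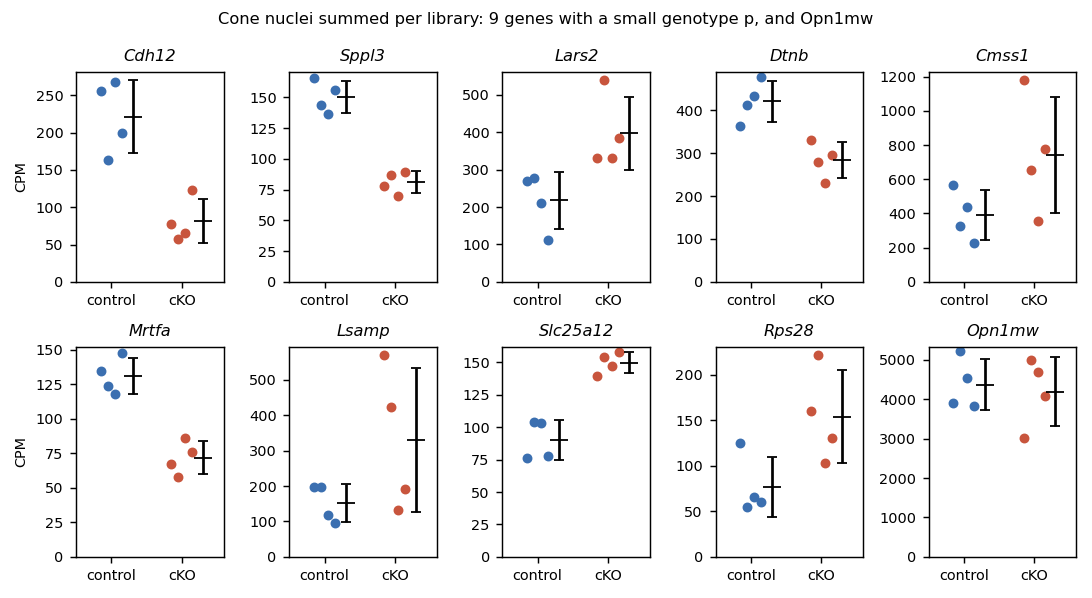
Level (CPM) in cones of 4 control (blue) and 4 cKO (red) libraries for 9 of the 10 genes with the smallest genotype p and for Opn1mw. Points are libraries and bars are mean ± SD. Cdh12, at 222 and 81.2 CPM on average, is the only gene called, and Opn1mw overlaps between groups.

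No list member that could be tested was called between genotypes, and 7 lists, lens crystallins among them, had no such member. With no filter on low counts, 4 of the 6 lens crystallins were called lower in cKO (edgeR adjusted p = 7.17e-05 to 0.00839), with most UMIs in control replicates 2 and 3. That fit called 11 of 18603 genes. In barcodes of mostly free RNA the 6 lens crystallins summed to 61.6 to 7572 CPM over libraries. The part of free RNA in the crystallin calls was not tested. Of the 16 phototransduction genes outside the rule that could be tested the median log2 fold change was 0.08, of 15 transcription factors 0.07, of 23 synapse genes -0.03 and of 24 outer segment and cilium genes -0.12, beside 0.01 over all genes. Pde6h was at 1041 ± 81.9 and 1220 ± 248 CPM in control and cKO cones (SD, n = 4 each), and Thrb at 1791 ± 218 and 1570 ± 198 CPM. Of the sums of 22 lists without rule genes the outer segment and cilium genes had the smallest p, at 32485 ± 1294 CPM in control and 30009 ± 1357 CPM in cKO cones (SD, n = 4 each, exact permutation p = 0.0571, 0.857 adjusted over the 22). Pcdh15 was most of that sum, at 19137 ± 1103 and 17468 ± 1334 CPM. Rod markers came to 4407 to 6104 CPM in control and 5080 to 7425 CPM in cKO cones, and lens crystallins to 17.3 to 569 and 27.5 to 96.4 CPM.

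The targeted gene was near 0 in cones of both genotypes. Piezo2 had 1 UMI in 670 cones (cKO replicate 12) and Piezo1, the related channel, had 3 (control 3, cKO 10 and cKO 13). A UMI of Piezo2 was seen in 0.149% of cones, 0.266% of rods and 4.14% of the other barcodes, so that cones give no check of the deletion. Olig2 had 0 UMIs in the 670 cones, which allows a share of up to 0.448% of cones with a UMI, by counting error only.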

How the data were processed

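Nuclei of 8 mouse retinal libraries (10x Chromium 3′ v3.1 kit, sorted for RGCs) were analysed, 4 control and 4 cKO, grouped by the genotype in the labels. The authors deposited UMI counts as raw matrices, made with Cell Ranger 7.0.0 on GRCm39, with all barcodes listed and neither free RNA nor doublets removed. The later steps of the study were not repeated. Free RNA stays in all counts, so rod and other abundant RNA is present in cones. No cell annotation was used here, and cones and rods were defined by UMI limits (rods by at least 8 UMIs and 1% of 6 rod genes, among them Gnat1 and Nrl). The members and gene lists were chosen with earlier results of these data known.

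UMIs of cones were summed per library and scaled to CPM. The sums were tested in R 4.3.3 by the quasi-likelihood method of edgeR 4.0.16, after filterByExpr and TMM scaling and with Benjamini-Hochberg adjustment. The model had genotype as the only term, or with Opn1mw status and the library as a block in libraries with more than 10 nuclei and 1000 counts in both sums. A call needed an adjusted p under 0.05 together with a log2 fold change past 0.5 in size. The Wald test of DESeq2 1.42.0 served as an alternative. For values per library, exact permutation tests (two-sided) ran over all 70 assignments. Doublets were scored with Scrublet in scanpy 1.11.5 and left out in an alternative only, as the 0.8% highest scores per 1000 barcodes. Cone and rod levels were compared as log2(CPM + 10) for genes with a mean of at least 20 CPM, without a test.

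Genes were named by rule. These were the called genes and those with the smallest p up to 10 for genotype, up to 10 called genes of largest fold in each direction for Opn1mw status, the 15 highest and 10 lowest for cones against rods, and members of the lists. Pdzd11, Tex28, Calu, Prkca, Ccser1, Hdac9, Phactr1, the genes called only with no filter and Cdh12 by opsin class were named after their values were seen. On simulated counts the genotype test recovered 62% of genes changed by 1 and 90% of those changed by 2 on the log2 scale (3885 genes), and the Opn1mw test 25% and 76% (2666 genes), with 6 and 1 false calls. The simulation gave all genes the same dispersion, no library differences beyond depth, and changes only in genes past the filter. Recovery in the real counts may therefore differ. Cones held 39 to 142 nuclei a library. Alternatives were other scaling, no filter on low counts, a stricter cone rule (12 UMIs and 2%), at least 1000 UMIs, doublets or rod-rich barcodes left out, thinning, and each library left out in turn. Some genes that met these rules are not reported here. Intervals and limits cover counting error only.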

Additional observations from a re-analysis of the deposited data

Results flagged for a closer look

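In 82 groups of 4 libraries, 5 held a library far from the other 3 by Dixon's 95% limit for the gap to the nearest value, and chance gives about 1 in 20. For 3 of the 5 (Piezo1, Piezo2 and the astrocyte markers) the value was 1 UMI beside 0 in the other libraries, which meets the limit by construction. In control cones, Piezo1 was at 4.71 CPM in replicate 3 and 0 in the others, the 3 astrocyte markers summed to 4.96 CPM in replicate 2 and 0 in the others, and Rps28 was at 125 CPM in replicate 1 and 54.5 to 65.9 CPM in the others. In cKO cones, Piezo2 was at 4.10 CPM in replicate 12 and 0 in the others, and the 5 RGC markers outside the rule summed to 144 CPM in replicate 13 and 389.7 to 405 CPM in the others.

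When all 8 libraries entered the Opn1mw comparison, the difference between Opn1mw+ and Opn1mw- cones itself differed between genotypes for 4 of 2445 genes (0.164%, edgeR interaction term), and for 0 without cKO replicate 13, where Zfp804b and Prkg1 were too low to be tested. The genes were Zfp804b (log2 -9.52, edgeR adjusted p = 0.0193), Prkg1 (-8.41, edgeR adjusted p = 0.0441), Pcdh9 (-3.45, edgeR adjusted p = 0.0441) and Mdga2 (-3.25, edgeR adjusted p = 0.0441). Zfp804b and Prkg1 had 0 UMIs in Opn1mw- cones of every control library, so their values rest on the small count added in the fit. In cKO replicate 13, 1 of the 8 Opn1mw- nuclei held 114 of their 118 Zfp804b UMIs, 78 of 83 Mdga2 UMIs and 28 of 28 Prkg1 UMIs. That nucleus had 4327 UMIs, 47 of them of the 8 rule genes, 0 of Opn1sw and 8 of bipolar markers. For Pcdh9 another nucleus of the same library held 27 of 29 UMIs.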

How the results depend on the processing

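The cKO minus control difference in the share of cones was -0.36 percentage points among barcodes (-0.49 to -0.14 without 1 library, the latter without control replicate 1), and -7.84 (p = 0.0286, exact permutation) among rods plus cones. The latter was -15.5 (exact permutation p = 0.0857) at 1000 UMIs or more, and -9.25 to -6.47 without 1 library, with an exact p of 0.0857 without any 1 of the cKO libraries and 0.0286 without any 1 of the control libraries. Without 1 library, the Opn1mw difference ran from -443 to 212 CPM, that in the thinned share with an Opn1mw UMI from -2.82 to 1.14 points, and that of Piezo2 from 0 to 1.37 CPM. Lists whose sums differed numbered 0 to 1 (1 without cKO replicate 13, the outer segment and cilium genes, at -2915 CPM, exact permutation p = 0.0286). Genotype calls numbered 1, but 11 with no filter on low counts (18603 genes), 0 with DESeq2 and 0 to 1 without 1 library. The 11 were Cdh12, Cmss1, Lsamp, Nfia, Igfbp7, 4 lens crystallins, and Adarb2 and Zfp804b with 40 of 48 and 127 of 236 UMIs in cKO replicate 13.

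Opn1mw calls numbered 67, but 121 with no filter, 25 after thinning to 1000 UMIs (1100 genes tested), 21 with DESeq2, 20 in cKO libraries alone and 50 in control libraries alone (each of 4 libraries), 13 in the other 4 libraries (fewer nuclei) and 31 to 63 without 1 library. They fell to 38, 31 and 43 on leaving out control replicate 3, cKO replicate 10 or cKO replicate 12. Without the replicate block they numbered 50, and Pdzd11 and Prkca were no longer called (edgeR adjusted p = 0.126 and 0.0585). Opn1mw+ and Opn1mw- sums are paired because both come from the same library. No pairing between genotypes was possible, since control and cKO libraries share no replicate number. The interaction gave 0 calls, and 4 with all 8 libraries.

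In the other 4 libraries signs turned for Ccser1 (-0.71 to 0.065), Hdac9 (-0.92 to 0.28) and Phactr1 (-0.96 to 0.19). They also turned for Cacna2d3 (-0.065 in those libraries and -0.77 with cones split at the library median of Opn1mw), for Prkca (-1.06 after thinning and -2.0 at the median split), and at that split for Gpc6 (-3.52), 4930578G10Rik (-0.21) and Abcb4 (0.014). Among genes not called, they turned for Rxrg (-0.081 in 8 libraries, -0.27 in cKO), Rorb (0.081 with no filter, 0.017 in cKO) and Tafa3 (0.19 with no filter, -0.39 to 0.14 without 1 library, 0.26 in the other 4 libraries, 0.10 in control). The cause was not tested. The median split, the subsets of libraries and the rod limits were added after the data were seen.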
